A study of Mus musculus with 20 samples.

Results

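The genes studied here encode the receptors through which acetylcholine, serotonin, dopamine and noradrenaline act on cells. They were taken from the deposited count table by symbol: serotonin receptors (Htr1 to Htr7 genes), dopamine receptors (Drd), alpha and beta adrenergic receptors (Adra, Adrb), muscarinic acetylcholine receptors (Chrm) and subunits of nicotinic acetylcholine receptors (Chrn). This gave 49 of 32245 symbols, namely 14 serotonin, 5 dopamine, 9 adrenergic, 5 muscarinic and 16 nicotinic genes. Of these, 29 had a mean of at least 1 CPM (counts scaled by library size) over the 20 libraries, and 32 had enough counts to be tested.

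Ribosome-bound mRNA was measured in the hippocampus of Rbp4-Cre:RiboTag mice at postnatal days (P) 5, 7, 10, 15, 21 and 28, with 5 libraries at P5 and 3 at each later age. All groups carried the same alleles and no treatment, so age was the only labelled difference besides a batch label. In RiboTag animals Cre recombination adds an HA tag to the ribosomal protein RPL22, and anti-HA beads then recover the ribosomes of cells in which Cre was active. The Rbp4 driver defines those cells, and the labels call them granule cells, the principal neurons of the dentate gyrus. Strain, sex and whether each library is a separate animal are not stated in the labels, so p-values measure the spread between libraries, which may be technical. The P10 and P15 libraries share batch A with 3 from P5, the P7 libraries share batch B with the other 2 from P5, and both older ages are in batch C. Age and batch cannot be told apart in any comparison of P21 or P28 with a younger age.

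Total counts per library ranged from 15.9 to 24.9 M, at which 3 counts correspond to 0.12 to 0.189 CPM, the floor of detection for counting error. The summed level of 10 granule cell markers was 1370 to 1840 CPM at P5 and P7 and 2440 to 2760 CPM at P21 and P28. Prox1 averaged 547 CPM at P5 and 515 CPM at P28 and Calb1 603 and 602 CPM, while C1ql2 averaged 74.1 and 522 CPM and Lct 10.5 and 180 CPM. Markers of other cells were present too: 9 markers of CA pyramidal neurons summed to 439 to 622 CPM at P5 and 218 to 323 CPM at P21, 7 markers of Cajal-Retzius cells to 118 to 161 and 15.3 to 25.2 CPM, and 9 markers of interneurons to 97 to 120 and 99.3 to 118 CPM. The sum of 11 markers of the oligodendrocyte lineage was 190 to 267 CPM at P5, 472 to 818 CPM at P10, 1060 to 1840 CPM at P15 and 856 to 1020 CPM at P28, and that of 8 markers of progenitors and cycling cells was 222 to 378 CPM at P5, 40.7 to 59.5 CPM at P10 and 17.6 to 21.3 CPM at P28. The interneuron sum was higher between those ages, at 144 to 188 CPM at P10 and 148 to 191 CPM at P15. These sums hide mixed directions. From P5 to P28, 3 of the 9 pyramidal markers rose and 6 fell. Of the oligodendrocyte markers 6 rose and 4 fell, and of the interneuron markers 2 rose and 4 fell. The Cajal-Retzius and progenitor markers all fell. So did all 11 markers of endothelial and mural cells, whose sum was 82 to 151 CPM at P5 and 21 to 26.4 CPM at P28. Of 7 astrocyte markers 5 fell and 0 rose. From P5 to P15, 5 of the interneuron markers rose and 3 fell. The part of any of these cell types in the receptor changes was not tested. Each marker in these lists was detected at every age except Lhx5, a Cajal-Retzius marker that was at 0 at P21. Levels are CPM after scaling for library composition. In bulk libraries, fewer cells of a type and less RNA per cell cannot be told apart.

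Most of these receptors couple to G proteins. Receptors coupled to Gs raise cyclic AMP, those coupled to Gq act through phospholipase C and calcium stores, and those coupled to Gi lower cyclic AMP and open inwardly rectifying potassium channels. The nicotinic receptors and the Htr3 receptor are instead ion channels opened by their transmitter. The dentate gyrus receives cholinergic fibers from the septum, serotonergic fibers from the raphe and noradrenergic fibers from the locus coeruleus, and these inputs tune the excitability and plasticity of granule cells.

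Promoter sequences are shown for members that rose and members that fell, so that both can be compared. RefSeq windows of 300 bases that span the start of transcription (build GRCm38.p6) were found for 37 members, with 42 windows in all. The windows of Drd5 (chr5:38319259-38319558, plus strand) and Htr1a (chr13:105443443-105443742, plus strand) belong to genes that rose with age, and those of Chrna4 (chr2:181039128-181039427, minus strand) and Chrm3 (chr13:10360754-10361053, minus strand) to genes that fell. Capitals mark GC boxes, the letters GGGCGG on either strand.
Drd5: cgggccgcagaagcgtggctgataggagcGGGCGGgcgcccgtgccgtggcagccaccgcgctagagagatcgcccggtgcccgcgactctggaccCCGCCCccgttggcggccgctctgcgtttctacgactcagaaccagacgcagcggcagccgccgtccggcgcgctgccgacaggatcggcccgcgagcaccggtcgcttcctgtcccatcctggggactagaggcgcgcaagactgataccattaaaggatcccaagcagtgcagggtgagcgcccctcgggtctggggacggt
Htr1a: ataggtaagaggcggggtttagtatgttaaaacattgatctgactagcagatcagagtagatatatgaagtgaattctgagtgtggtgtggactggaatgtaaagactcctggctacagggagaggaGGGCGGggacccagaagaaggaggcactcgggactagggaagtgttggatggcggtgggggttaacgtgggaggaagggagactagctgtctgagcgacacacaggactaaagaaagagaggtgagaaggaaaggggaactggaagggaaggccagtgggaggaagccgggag
Chrna4: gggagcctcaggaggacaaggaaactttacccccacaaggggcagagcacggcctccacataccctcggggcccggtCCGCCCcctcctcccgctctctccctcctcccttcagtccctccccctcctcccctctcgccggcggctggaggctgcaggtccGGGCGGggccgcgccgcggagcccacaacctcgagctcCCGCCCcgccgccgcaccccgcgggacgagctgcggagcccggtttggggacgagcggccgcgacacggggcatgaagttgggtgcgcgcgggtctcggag
Chrm3: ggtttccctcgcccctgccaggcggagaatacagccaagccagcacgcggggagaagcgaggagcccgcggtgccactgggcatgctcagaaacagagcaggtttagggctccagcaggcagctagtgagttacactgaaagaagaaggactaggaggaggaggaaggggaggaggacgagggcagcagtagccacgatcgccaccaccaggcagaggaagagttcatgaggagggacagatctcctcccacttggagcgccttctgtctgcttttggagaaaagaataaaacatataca
The Drd5 window held 2 GC boxes, that of Htr1a 1, that of Chrna4 3 and that of Chrm3 none, with a GC content of 70.3%, 52.3%, 74.3% and 57.3%. The GENCODE annotation starts these genes upstream of the RefSeq start, so the whole window of Chrna4 and part of each of the others lie within the annotated gene. A GC box was found in 23 of the 42 windows and in 35.7% of all 32851 windows of the table. Counted by gene, among members that rose from P5 to P28, 7 of the 9 with a window held a GC box in any window, and among those that fell 7 of 11. These counts are of genes, some with 2 windows, so they are not on the scale of the 35.7% of windows. The letters TGACGTCA, the full cyclic AMP response element, were in none of the 42 windows and in 1.79% of all, and the TATA box letters TATAAA were in 2 of the 42 and in 13.6% of all.

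Levels differed with age for 29 of the 32 members tested (edgeR quasi-likelihood test, adjusted p under 0.05), where 79.7% of all 15373 genes tested did. The exceptions were Adra1b, Chrm2 and Htr1b. From P5 to P15, a comparison that rests on libraries of batch A, 11 members rose and 10 fell of 32, beside 63.4% of all genes called, 31.6% higher and 31.8% lower. The median change was 0.13 on the log2 scale for members and -0.02 for all genes. From P5 to P28, 13 rose and 14 fell, beside 71.6% of all genes, 35.3% higher and 36.4% lower, with medians of -0.24 and -0.01. The members as a set thus changed about as often as genes at large, and in both directions. By mean level, the peak age of the 29 members past 1 CPM was P5 for 6, P7 for 7, P10 for 6, P15 for 1, P21 for 2 and P28 for 7. Of the calls, 19 of 21 at P15 and 24 of 27 at P28 held under every alternative that could be fitted.

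**Figure D1:**
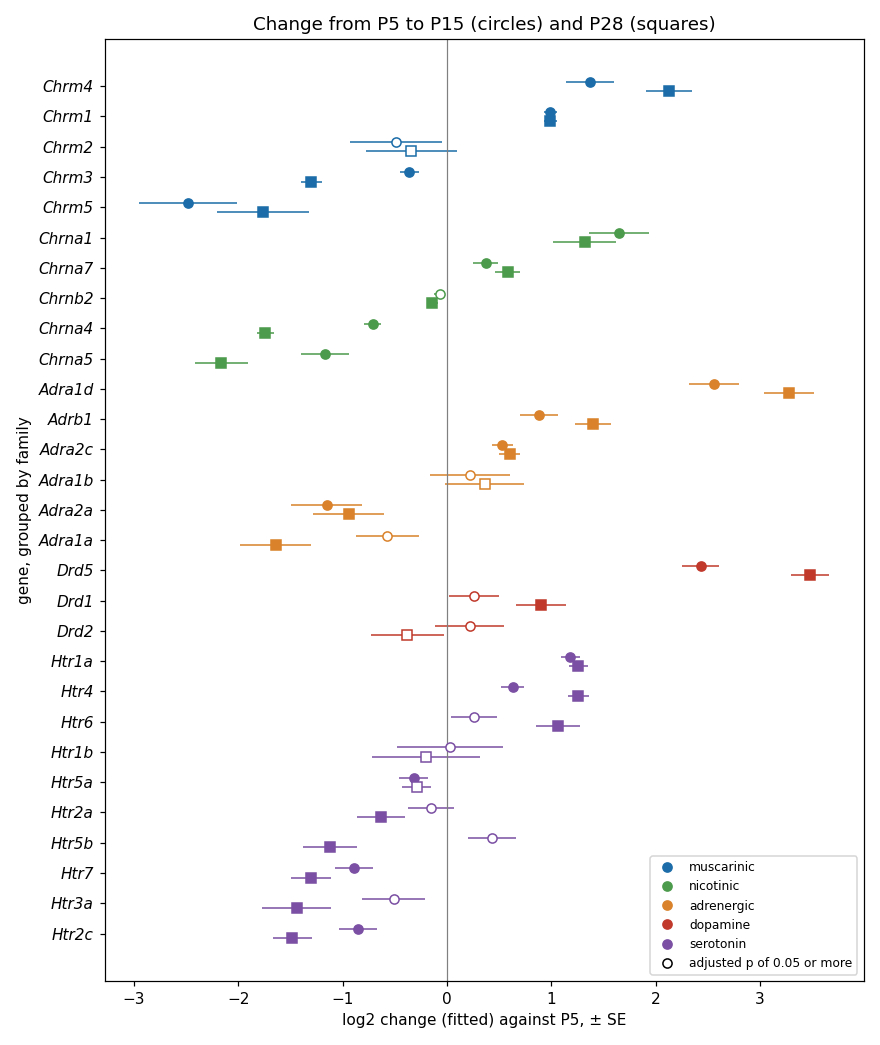
Fitted log2 change (x axis, ± SE) of the 29 receptor genes past 1 CPM, from P5 to P15 (circles) and from P5 to P28 (squares), with genes on the y axis grouped by family and open symbols for an adjusted p of 0.05 or more. Each family held genes that rose and genes that fell or were not called, with Drd5 (3.48) and Adra1d (3.28) farthest to the right at P28.

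Among neighboring ages, most calls fell between P7 and P10 and between P15 and P21. These are also the steps whose ages lie in different batches, so the timing cannot be placed by age alone. From P5 to P7, 1 member was called (11% of all genes), Adra2c, which rose. From P7 to P10, 8 rose (Chrm1, Chrm4, Chrna1, Adra1d, Adrb1, Drd5, Htr1a and Htr5b) and 1 fell (Htr7), beside 42.8% of all genes, 22.5% higher and 20.3% lower. The P7 libraries are all of batch B and those of P10 all of batch A, so this step rests on a batch difference estimated from the 5 P5 libraries. With no batch term Chrm4 was not called in it (0.36 ± 0.24 in place of 0.98 ± 0.33, adjusted p = 0.22). From P10 to P15, Drd5 and Htr4 rose and Chrm3 and Chrna4 fell (4.35% of all genes, 1.83% higher and 2.51% lower). From P15 to P21, 4 rose (Adra1d, Drd1, Drd5 and Htr4) and 8 fell (Chrm3, Chrna4, Chrna5, Chrnb2, Drd2, Htr2a, Htr2c and Htr5b), beside 28.8% of all genes, 14% higher and 14.8% lower. The P15 libraries are of batch A and those of P21 of batch C, so age and batch cannot be told apart here. From P21 to P28 the edgeR test called 0 members (0.254% of all genes), DESeq2 called 0 and 3 had an unadjusted p under 0.05. Step counts were less stable than those of the long spans: without P10 replicate 1 no member was called from P10 to P15, without P10 replicate 3 or P15 replicate 3 the count was 1, and without P15 replicate 2 it was 2. The call of Drd5 in that step was lost in most alternatives. Without P5 replicate 1 of batch A or P7 replicate 3, 5 members were called from P7 to P10, and Chrm1, Htr1a, Adra1d and Drd5 were the calls of that step that held in every alternative. Of the 12 calls from P15 to P21, 8 held in every alternative, and those of Adra1d, Chrnb2, Drd1 and Htr2c did not. From P5 to P7 the count was 0 once P5 replicate 1 of batch B was left out and 2 when P7 replicate 2 or 3 was. Between the batches at P5, 1 member differed (10.1% of all genes), Htr1a, higher in batch B.

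Muscarinic receptors were the most strongly represented family, and this rested on Chrm1, the Gq-coupled receptor that is the main muscarinic receptor of forebrain principal neurons. Chrm1 (chr19:8663789-8683587, plus strand) rose between P7 and P10 with no later step called, while Chrm3, another Gq-coupled receptor, fell after P10 and Chrm4, a Gi-coupled receptor, rose. All 5 family members passed 1 CPM.

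Chrm1 stood at 215, 220 and 222 CPM in the batch A libraries of P5 and 238 and 244 CPM in those of batch B. It was at 298, 257 and 244 CPM at P7, 380, 433 and 397 CPM at P10, 445, 429 and 434 CPM at P15, 458, 435 and 435 CPM at P21 and 430, 419 and 455 CPM at P28. All libraries from P10 on lay above all younger ones. The change was 0.74 ± 0.09 (log2, SE) from P7 to P10 (edgeR adjusted p = 1.46e-06), and from P5 it was 0.99 ± 0.06 at P15 and 0.99 ± 0.06 at P28 (adjusted p = 7e-13).

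Chrm3 (chr13:9875486-10360847, minus strand) was at 31.5, 29.5, 31.8, 32.8 and 33.4 CPM at P5, 31.1, 34.9 and 32.1 CPM at P7 and 33.7, 32.0 and 28.5 CPM at P10. It was lower at P15 (24.2, 21.9 and 26.0 CPM), at P21 (11.6, 13.9 and 16.4 CPM) and at P28 (12.2, 12.6 and 13 CPM), with no overlap between P10, P15 and the 2 oldest ages. The change from P5 was -0.36 ± 0.09 at P15 and -1.30 ± 0.10 at P28 (edgeR adjusted p = 2.36e-11). Chrm4 was at 1.90, 3.93, 3.84, 5.54 and 4.39 CPM at P5, 8.22, 8.82 and 8 CPM at P15 and 15.7, 13.5 and 13 CPM at P28, a change of 2.13 ± 0.22 from P5 to P28 (adjusted p = 1.68e-08) in which the ages did not overlap.

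The remaining muscarinic genes were low. Chrm5, a Gq-coupled receptor known from dopamine neurons, was at 2.36 to 6.02 CPM at P5 and 0.638 to 1.31 CPM at P28 and fell by 1.76 ± 0.44 (log2, edgeR adjusted p = 0.00122). Chrm2, a Gi-coupled receptor, was at 1.80 ± 0.717 CPM (SD, n = 5) at P5 and 1.74 ± 0.871 CPM (SD, n = 3) at P28 and was not called in any comparison. Genes were compared per kilobase of exon in the GENCODE annotation, and the annotation used for counting is not known. On that scale Chrm1 made up 77.3% ± 2.49 (SD, n = 5) of the family at P5 and 84.1% ± 1.36 (SD, n = 3) at P28. The share of Chrm3 on that scale was 11.2% ± 0.645 and 2.53% ± 0.0962, and that of Chrm4 was 5.90% ± 1.66 and 12.3% ± 1.28. Chrm4 has only 1.44 kb of annotated exon, and its RefSeq window lies upstream of the annotated gene. Its share would be lower if longer exons had been counted. The ratio of Chrm1 to Chrm3 per kilobase was 6.57 to 7.18 over the P5 libraries and 32.0 to 34.1 over those of P28.

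**Figure D2:**
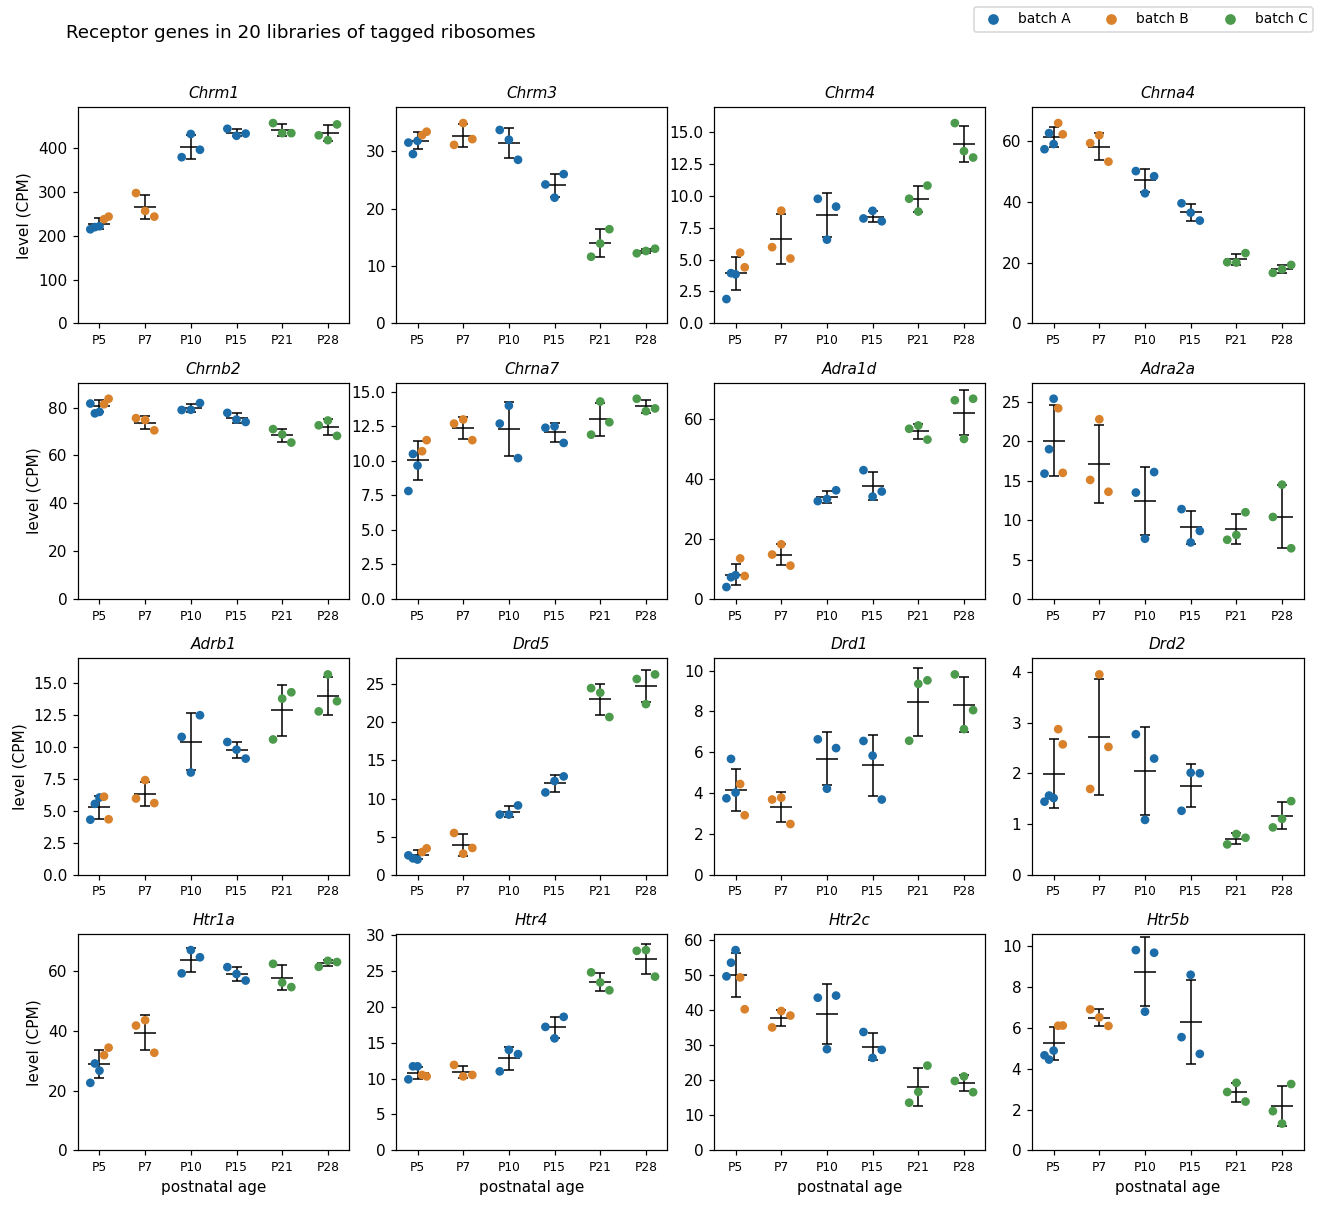
Level in CPM (y axis, linear, from 0) of 16 receptor genes in each of the 20 libraries (points, colored by batch) at 6 postnatal ages (x axis), with the mean and SD of each age as horizontal bar and whiskers. Chrm1 and Htr1a reach their later level at P10, Adra1d and Drd5 are higher again at P21, and the mean of Chrna4 is lower at each later age.

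The subunits of nicotinic receptors changed unequally, led by a fall of Chrna4, which with Chrnb2 forms the main high-affinity nicotinic receptor of brain. Of 16 subunit genes, 5 passed 1 CPM: Chrna4, Chrnb2, Chrna7, Chrna5 and Chrna1. Chrna4 and Chrna5 fell, Chrna7 and Chrna1 rose and Chrnb2 fell by little. Chrna4 (chr2:181018380-181043546, minus strand) was at 57.3, 62.6, 59.0, 65.9 and 62.2 CPM at P5 and 59.3, 61.9 and 53.2 CPM at P7. It was at 50.1, 42.8 and 48.4 CPM at P10, 39.5, 36.4 and 33.8 CPM at P15, 20.1, 20 and 23.1 CPM at P21 and 16.6, 17.8 and 19.2 CPM at P28. From P10 on, no library of an age reached the lowest library of the age before. The change from P5 was -0.71 ± 0.08 (log2, SE) at P15 and -1.74 ± 0.08 at P28 (edgeR adjusted p = 2.81e-15).

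Chrnb2 (chr3:89746195-89764632, minus strand) was at 77.6 to 83.7 CPM at P5 and at 72.6, 74.6 and 68.2 CPM at P28. Its change of -0.14 ± 0.05 (log2) from P5 to P28 passed the test (edgeR adjusted p = 0.0209) but not without P5 replicate 1 of batch A (-0.12, adjusted p = 0.074), without P28 replicate 3 (-0.11, 0.12) or with no filter on low counts (-0.12, 0.11). Exons of Adar on the opposite strand cover 16.3% of Chrnb2 exons, and Adar had 1912 to 3870 counts per library against 1177 to 1735 for Chrnb2. The library kit marks strand, but the strand setting of the counting was not given in the sources used here, so the part of Adar reads in Chrnb2 was not tested. The ratio of Chrna4 to Chrnb2 per kilobase was 1.17 to 1.35 over the P5 libraries, 0.762 to 0.847 at P15 and 0.382 to 0.469 at P28, with no overlap between these ages.

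Chrna7, whose product forms channels of its own with high calcium permeability, was at 7.82, 10.5, 9.66, 10.7 and 11.5 CPM at P5 and 14.5, 13.6 and 13.8 CPM at P28. It rose by 0.58 ± 0.12 (log2) to P28 (edgeR adjusted p = 0.000172). Its call at P15 (0.37 ± 0.12, adjusted p = 0.0113) was lost with total-count scaling (0.25, 0.077), with no batch term (0.26, 0.052) and without P5 replicate 1 of batch A (0.26, 0.092). Chrna5, an accessory subunit, was at 4.54 to 6.30 CPM at P5 and 0.786 to 1.54 CPM at P28, a change of -2.16 ± 0.25 (adjusted p = 4.46e-08). Chrna3, which lies next to Chrna5 (chr9:55010111-55026562 and chr9:54980880-55007779), averaged 0.972 CPM over the libraries, just below the floor. It was at 1.68 to 2.50 CPM at P5 and at 0, 0.157 and 0.174 CPM at P28, where no library held more than 3 counts of it (edgeR adjusted p = 6.39e-06). Chrna1, a subunit of the receptor of muscle, was at 0.524 to 1.28 CPM at P5, 2.04 to 2.63 CPM at P15 and 1.75 to 2.10 CPM at P28, with a change of 1.32 ± 0.30 at P28 (adjusted p = 0.000434). The other 10 subunit genes averaged at most 0.279 CPM, and Chrng had no count in any library. Summed per kilobase, the family was at 26.7 ± 1.2 CPM (SD, n = 5) at P5 and 16.2 ± 0.19 CPM (SD, n = 3) at P28, and these libraries did not overlap. Within it the share of Chrna4 was 45.7% ± 0.910 at P5 and 21.9% ± 1.75 at P28, that of Chrnb2 36% ± 1.69 and 52.8% ± 1.82, and that of Chrna7 8.31% ± 0.867 and 19.1% ± 0.754.

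Among adrenergic receptors the largest change was that of Adra1d, a Gq-coupled receptor for noradrenaline. It rose together with Adrb1, a Gs-coupled receptor, as did Adra2c, a Gi-coupled receptor, while Adra2a, the Gi-coupled receptor that also acts as an autoreceptor of noradrenergic neurons, fell. Adra1d (chr2:131545850-131562283, minus strand) was at 3.97, 7.23 and 7.92 CPM in the batch A libraries of P5, 13.5 and 7.65 CPM in those of batch B and 14.8, 18.2 and 11.1 CPM at P7. It was at 32.6, 33.3 and 36.2 CPM at P10, 42.9, 34.1 and 35.8 CPM at P15, 56.7, 57.8 and 53.1 CPM at P21 and 66.2, 53.3 and 66.7 CPM at P28. Every library from P10 on was above every younger one. The change was 1.95 ± 0.36 (log2, SE) from P7 to P10, or 1.21 with no batch term, and 3.28 ± 0.24 from P5 to P28 (edgeR adjusted p = 9.25e-09). The further call from P15 to P21 (0.57 ± 0.20, adjusted p = 0.0437) was lost when any library of those ages except P15 replicate 1 was left out (adjusted p of 0.071 to 0.14), and in several other alternatives.

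Adra2a was at 15.9, 19.0, 25.4, 24.2 and 16.0 CPM at P5, 11.4, 7.17 and 8.63 CPM at P15 and 10.4, 14.5 and 6.43 CPM at P28. The P15 and P28 libraries lay below those of P5, with a change of -1.15 ± 0.34 (log2) at P15 (edgeR adjusted p = 0.00879) and -0.94 ± 0.34 at P28 (adjusted p = 0.0219). The call at P28 was lost without P5 replicate 3 of batch A (-0.74, 0.09), without P28 replicate 1 (-0.93, 0.054) and without P28 replicate 3 (-0.69, 0.089). Adra2c was at 15.9 to 19.5 CPM at P5, 25.1 to 27.4 CPM at P7 and 24.7 to 26.9 CPM at P28, a change of 0.60 ± 0.10 at P28 (adjusted p = 5.68e-06). Its call from P5 to P7 (0.44 ± 0.10, adjusted p = 0.00744) was lost without P5 replicate 1 of batch B (0.41, 0.11). Adrb1, a main beta receptor of hippocampal neurons, was at 4.31 to 6.11 CPM at P5 and at 12.8, 15.7 and 13.6 CPM at P28, a change of 1.40 ± 0.17 (adjusted p = 1.11e-07).

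Adra1a, a further Gq-coupled receptor, fell from 1.91 to 4.19 CPM at P5 to 0.464 to 1.21 CPM at P28 (-1.64 ± 0.34, edgeR adjusted p = 0.000125). Adra1b was at 1.20 ± 0.262 CPM (SD, n = 5) at P5 and 1.51 ± 0.664 CPM (SD, n = 3) at P28 and was not called. Adra2b and Adrb3 averaged 0.0879 and 0.266 CPM and were not tested. Summed per kilobase, the family was at 16.2 ± 3.2 CPM at P5 and 47.6 ± 3 CPM at P28, and the share of Adra1d was 25.4% ± 6.33 and 68.4% ± 4.27. The share of Adra2a on that scale was 25.8% ± 2.81 and 4.60% ± 2.05, and that of Adra2c 33.0% ± 4.72 and 16.0% ± 0.245.

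Dopamine receptors were low, and Drd5 carried the increase of the family. Drd5 and Drd1 are the Gs-coupled dopamine receptors, while Drd2, coupled to Gi, is known in the hilus from mossy cells. Drd5 (chr5:38319367-38322518, plus strand), whose promoter window is shown above, was at 2.53, 2.14, 1.98, 2.96 and 3.45 CPM at P5 and 5.47, 2.75 and 3.50 CPM at P7. It was at 7.89, 7.89 and 9.09 CPM at P10, 10.8, 12.3 and 12.9 CPM at P15, 24.5, 23.9 and 20.7 CPM at P21 and 25.7, 22.4 and 26.3 CPM at P28. The libraries of P7, P10, P15 and P21 did not overlap with one another. Drd5 had the largest fitted rise of the tested members from P5 to P28, 3.48 ± 0.18 on the log2 scale (edgeR adjusted p = 1.02e-14), and rose by 1.63 ± 0.28 from P7 to P10 (adjusted p = 8.04e-05) and 0.94 ± 0.15 from P15 to P21 (adjusted p = 3.31e-05). The predicted gene Gm26560 overlaps 48.6% of Drd5 exons on the opposite strand and had 0 to 20 counts per library against 34 to 469 for Drd5.

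Drd1 was at 3.74, 5.67, 4.02, 4.44 and 2.91 CPM at P5, 6.55, 5.83 and 3.68 CPM at P15 and 9.81, 7.13 and 8.06 CPM at P28. It rose by 0.90 ± 0.24 (log2) from P5 to P28 (edgeR adjusted p = 0.00194), and the P28 libraries lay above those of P5. Drd2 was at 1.44 to 2.87 CPM at P5, 1.26, 2.01 and 2.00 CPM at P15, 0.596, 0.801 and 0.728 CPM at P21 and 0.932, 1.1 and 1.45 CPM at P28. It fell from P15 to P21 (-1.30 ± 0.37, adjusted p = 0.00963) but was not called from P5 to P28 (-0.38 ± 0.35, adjusted p = 0.342), a comparison that passed with no batch term (-0.79, 0.041). Calb2, which marks mossy cells and also interneurons, averaged 24.2 CPM at P5, 12.6 CPM at P15 and 5.86 CPM at P21. In the same order Ociad2, also on the mossy cell list, averaged 12.8, 29.6 and 27.9 CPM and Fgf1 3.53, 9.71 and 8.65 CPM. Of the 6 mossy cell markers 2 rose and 2 fell from P5 to P15. Together they summed to 47.3 to 68.4 CPM at P15 and 40.1 to 49.2 CPM at P21. The part of mossy cell RNA in the Drd2 values was not tested. Drd4 averaged 0.313 CPM and Drd3 0.0109 CPM. Per kilobase, Drd5 made up 28.9% ± 5.15 (SD, n = 5) of the family at P5 and 73.5% ± 0.937 (SD, n = 3) at P28, Drd1 40.4% ± 10.0 and 21.4% ± 2.31, and Drd2 26.9% ± 6.15 and 4.26% ± 0.921. The family sum per kilobase was 2.86 ± 0.38 CPM at P5 and 10.7 ± 0.96 CPM at P28.

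**Figure D3:**
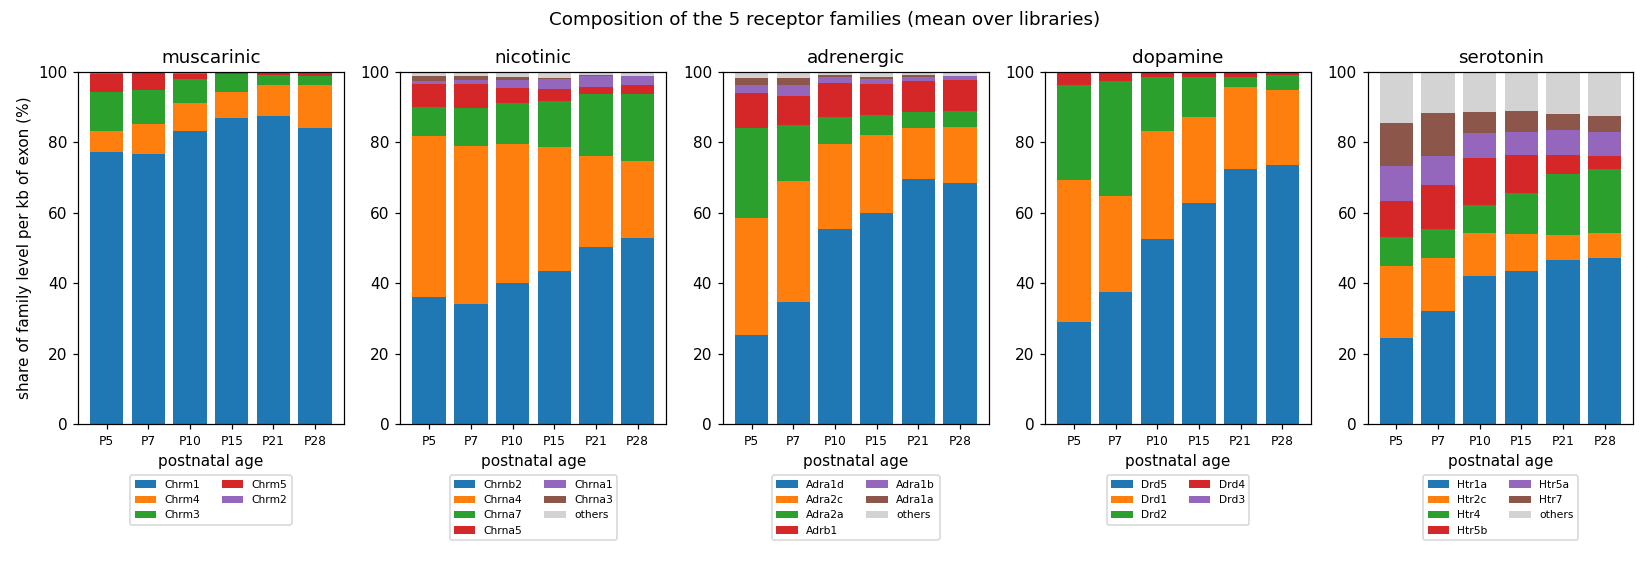
Share of each gene in its family (y axis, percent of the family sum of CPM per kilobase of exon, mean over the libraries of an age) at 6 postnatal ages (x axis) for the 5 receptor families. Adra1d grows from 25.4% to 68.4% of adrenergic and Drd5 from 28.9% to 73.5% of dopamine receptor level, and Chrna4 shrinks from 45.7% to 21.9% of nicotinic subunits.

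Serotonin receptors were the most varied family, with 10 of 14 genes past 1 CPM. Htr1a, the Gi-coupled receptor that opens potassium channels in hippocampal principal neurons, reached its later level at P10, and the Gs-coupled receptors Htr4 and Htr6 rose. Htr2c and Htr2a, coupled to Gq, and Htr7, coupled to Gs, fell. Htr1a (chr13:105443639-105448122, plus strand) was at 22.6, 29.1 and 26.7 CPM in the batch A libraries of P5, 31.9 and 34.4 CPM in those of batch B and 41.8, 43.6 and 32.7 CPM at P7. It was at 59.3, 67.1 and 64.7 CPM at P10, 61.4, 59.1 and 56.9 CPM at P15, 62.5, 56.2 and 54.7 CPM at P21 and 61.5, 63.5 and 63.1 CPM at P28. Every library from P10 on was above every younger one, and no later step was called. The change was 1.04 ± 0.14 (log2, SE) from P7 to P10 and 1.26 ± 0.09 from P5 to P28 (edgeR adjusted p = 2.41e-11). Over the alternatives the change from P7 to P10 ranged from 0.70 to 1.12. At P5 the level in batch B was above that in batch A by 0.34 ± 0.11 (adjusted p = 0.0411), a call lost with total-count scaling and when any of 14 libraries was left out.

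Htr4 was at 9.89, 11.7, 11.7, 10.5 and 10.3 CPM at P5, 17.2, 15.6 and 18.6 CPM at P15, 24.8, 23.4 and 22.3 CPM at P21 and 27.8, 27.9 and 24.2 CPM at P28. The P5, P15 and P21 libraries did not overlap, and the change from P5 was 0.63 ± 0.11 (log2) at P15 and 1.26 ± 0.10 at P28 (edgeR adjusted p = 1e-10). Htr6 was at 1.5 to 2.79 CPM at P5 and 4.66, 4.66 and 4.81 CPM at P28, a change of 1.06 ± 0.21 (adjusted p = 0.000114).

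Htr2c (chrX:146962513-147197277, plus strand) was at 49.7, 53.6, 57.2, 49.4 and 40.3 CPM at P5, 33.8, 26.4 and 28.7 CPM at P15, 13.6, 16.7 and 24.2 CPM at P21 and 19.8, 21.1 and 16.6 CPM at P28. The change from P5 was -0.85 ± 0.18 (log2) at P15 and -1.48 ± 0.19 at P28 (edgeR adjusted p = 5.53e-06), with no overlap. Htr2c is also known as an abundant transcript of the choroid plexus, whose defining marker Ttr averaged 199 CPM at P5 and 81.5 CPM at P28. Of 8 markers of choroid plexus and ependymal cells, which summed to 205 to 393 CPM at P5 and 62.4 to 188 CPM at P28, 5 fell and 2 rose over that span. Htr2c is also expressed by pyramidal neurons, whose markers are set beside it further on, and the part of either cell type was not tested. Htr2a was at 2.19 to 3.96 CPM at P5 and 1.62 to 1.80 CPM at P28 (-0.63 ± 0.23, adjusted p = 0.0171), a call lost without P5 replicate 3 of batch A (-0.49, 0.089). Htr7 was at 8.98 to 12.7 CPM at P5, 5.31 to 7.15 CPM at P15 and 3.73 to 5.71 CPM at P28 (-1.30 ± 0.19, adjusted p = 1.28e-06).

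Htr5b, whose counterpart in humans is a pseudogene, was highest at P10. It was at 4.45 to 6.12 CPM at P5, 9.82, 6.80 and 9.69 CPM at P10, 2.86, 3.31 and 2.39 CPM at P21 and 1.92, 1.31 and 3.25 CPM at P28. It fell by 1.14 ± 0.24 (log2) from P15 to P21 (edgeR adjusted p = 0.000928), while the call of its rise from P7 to P10 (0.82 ± 0.33, adjusted p = 0.0494) was lost with total-count scaling, a stricter filter, no batch term and a majority of single libraries left out. Htr5a, the related Gi-coupled receptor, was at 12.7 to 15.5 CPM at P5, 9.84 to 11.7 CPM at P15 and 10.3 to 11.5 CPM at P28. Its call at P15 (-0.32 ± 0.14, adjusted p = 0.0489) was lost without any of the 5 P5 libraries (adjusted p of 0.054 to 0.14), without P7 replicate 1, P15 replicate 1 or P15 replicate 3 and with no filter on low counts. A block for replicate number (0.063) and leaving out batch B of P5 (0.054) lost it too. It was not called at P28 (-0.29 ± 0.14, adjusted p = 0.0723), where total-count scaling, a stricter filter and no batch term gave a call (adjusted p of 0.011 to 0.043).

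Htr1b, a Gi-coupled receptor that also acts at axon terminals, was at 5.90 ± 1.22 CPM (SD, n = 5) at P5 and 4.69 ± 2.05 CPM (SD, n = 3) at P28 and was not called in any comparison. Htr3a, the ion channel subunit carried by a class of interneurons and by Cajal-Retzius cells, averaged 1.18 CPM, just inside the floor. It was at 1.28 to 1.96 CPM at P5 and 0.419 to 0.811 CPM at P28 (-1.44 ± 0.33, edgeR adjusted p = 0.000499), while the Cajal-Retzius marker Reln averaged 113 and 14.3 CPM. Of the 9 interneuron markers 2 rose and 4 fell over that span. Among them Adarb2 averaged 7.75 and 38.7 CPM and Vip 0.636 and 0.969 CPM. The part of either cell type in the Htr3a values was not tested. Htr1d, below the floor, was at 0.463 to 0.873 CPM at P5 and at 0, 0.105 and 0.058 CPM at P28, below the detection floor. Htr1f averaged 0.218 CPM, Htr2b 0.0254 CPM and Htr3b 0.0182 CPM. Per kilobase, Htr1a made up 24.4% ± 3.11 (SD, n = 5) of the serotonin family at P5 and 47.2% ± 1.02 (SD, n = 3) at P28, Htr2c 20.4% ± 2.79 and 6.94% ± 0.820, and Htr4 8.35% ± 0.688 and 18.3% ± 1.40. The sum of the family was 26.4 ± 1.5 CPM per kilobase at P5 and 29.6 ± 0.16 CPM at P28.

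Over all members and libraries, the order of mean levels per kilobase began with Chrm1 at 54.6 CPM, followed by Adra1d at 17.2, Htr1a at 11.1, Chrnb2 at 9.02, Chrna4 at 8.45, Adra2c at 6.76, Chrm4 at 5.61, Chrm3 at 4.02, Htr2c at 3.65 and Drd5 at 3.64 CPM. Grouped by coupling, a grouping made after the values were seen and given as a description, 6 of the 7 Gs-coupled receptors tested rose from P5 to P28, among them Drd5, Drd1, Adrb1, Htr4 and Htr6, and 1 fell (Htr7). Of the 8 Gq-coupled receptors tested, 2 rose (Chrm1 and Adra1d), 5 fell (Chrm3, Chrm5, Adra1a, Htr2a and Htr2c) and 1 was not called. Of the 9 Gi-coupled receptors tested, 3 rose (Chrm4, Adra2c and Htr1a), 2 fell (Adra2a and Htr1d) and 4 were not called. Of the 7 ion channel subunits tested, 2 rose and 5 fell. Htr5b, which fell by 1.12, was put in no class. The median changes of these 4 classes were 1.26, -0.97, -0.29 and -1.44 on the log2 scale, beside -0.01 for all genes, of which 35.3% rose and 36.4% fell.

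At P10 and P21, several members varied between libraries along with markers of CA pyramidal neurons, but at P5 and P28 Htr2c and Adra2a did not follow the order of the marker sums. At P10, the summed pyramidal markers were 528, 301 and 520 CPM in replicates 1, 2 and 3. In the same order Htr1b was at 10.8, 2.89 and 10.4 CPM, Htr2c at 43.6, 28.9 and 44.2 CPM, Adra2a at 13.5, 7.64 and 16.1 CPM, Chrm2 at 4.64, 1.32 and 2.83 CPM, Chrm5 at 1.75, 0.963 and 2.47 CPM and Chrna3 at 0.964, 0.241 and 1.99 CPM. Replicate 2 was the lowest library in each of them, although Chrm1 (433 CPM), Htr1a (67.1 CPM) and Htr4 (14 CPM) were highest in it. At P21 the marker sums were 218, 231 and 323 CPM, and Htr2c (13.6, 16.7 and 24.2 CPM), Chrm3 (11.6, 13.9 and 16.4 CPM) and Adra2a (7.51, 8.12 and 11 CPM) were likewise highest in replicate 3. At P28 the sums were 288, 248 and 279 CPM, and Htr2c (19.8, 21.1 and 16.6 CPM) and Adra2a (10.4, 14.5 and 6.43 CPM) were highest in replicate 2, which had the lowest sum, while Htr1b (6.58, 2.52 and 4.98 CPM) was lowest in it. At P5 the library with the highest sum (622 CPM) had Htr2c at 49.4 CPM, and Htr2c was highest (57.2 CPM) in one with a sum of 531 CPM. The genes named here were picked after their values were seen, and the part of pyramidal cell RNA in them was not tested.

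**Figure D4:**
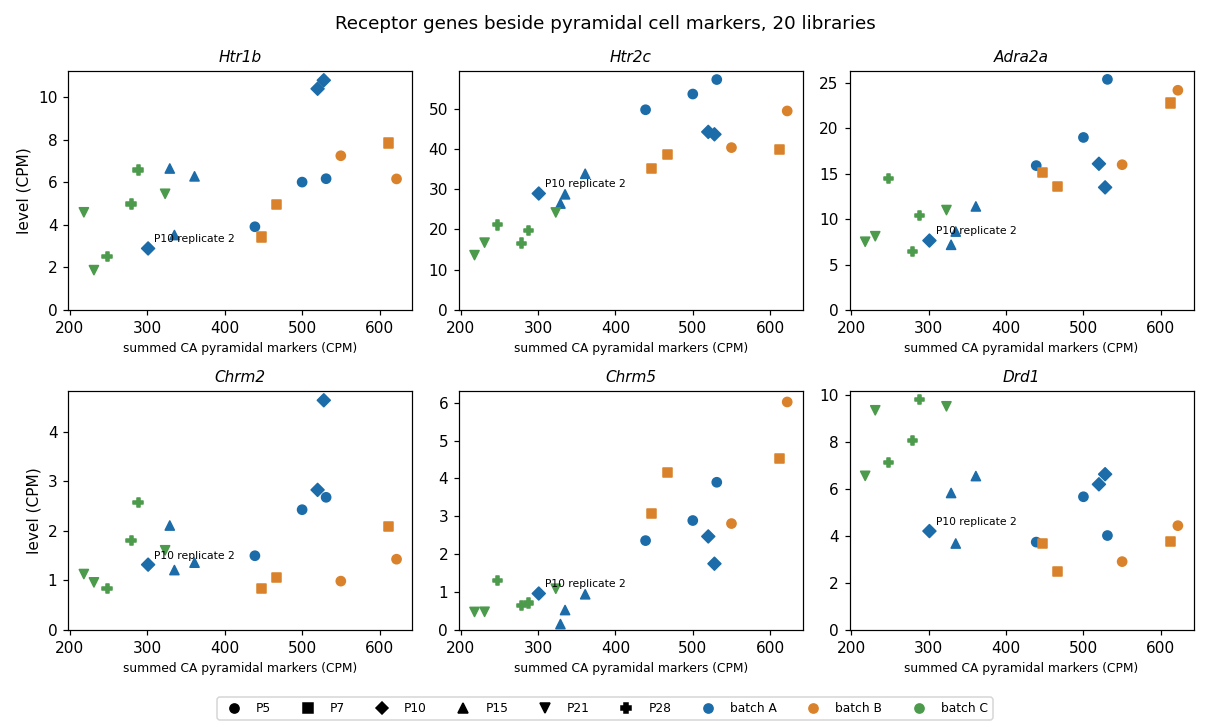
Level in CPM of 6 receptor genes (y axes, linear, from 0) against the summed level of 9 CA pyramidal cell markers in CPM (x axes) in the 20 libraries, with shape for age and color for batch. P10 replicate 2 (301 CPM of markers) lies apart from the other P10 libraries (520 and 528 CPM). It is low on the y axis for Htr1b, Htr2c and Adra2a. Drd1 has its highest means at P21 and P28, where marker sums are low. Within P10, however, Drd1 too is lowest in replicate 2 (4.21 CPM beside 6.63 and 6.20 CPM).

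Genes that act with these receptors were followed as lists. Of 4 subunits of the potassium channels opened by Gi-coupled receptors (GIRK), 3 rose at P15 and at P28 and none fell: Kcnj3 was at 96.3 ± 3.12 CPM (SD, n = 5) at P5 and 222 ± 7.74 CPM (SD, n = 3) at P15 (log2 change 1.21 ± 0.07, edgeR adjusted p = 6.52e-14), Kcnj6 at 15.7 ± 4.40 and 32.4 ± 2.05 CPM (1.36 ± 0.10) and Kcnj9 at 44.9 ± 7.87 and 139 ± 9.30 CPM (1.82 ± 0.13). Kcnj5 was below 1 CPM at both ages and was not called. Of 25 G protein subunits tested, 5 rose and 18 fell at P15, with a median of -0.41, and 3 rose and 19 fell at P28. Gnb4, a beta subunit, changed by -1.49 ± 0.07, and the inhibitory alpha subunits Gnai3 and Gnai2 by -1.34 ± 0.07 and -1.15 ± 0.07 at P15. Of 22 receptor kinases, arrestins and RGS proteins, which end signaling, 10 rose and 5 fell at P15 and 8 rose and 9 fell at P28. Rgs14 rose from 21 ± 6.40 CPM at P5 to 89.8 ± 5.54 CPM at P15 (2.43 ± 0.09), Rgs8 by 2.14 ± 0.09 and Rgs7bp by 1.67 ± 0.07.

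Downstream of Gq, 8 of 14 genes of phospholipase C, IP3 receptors and protein kinase C rose and 3 fell at P15, and 7 rose and 4 fell at P28. Itpr1, an IP3 receptor, changed by 1.09 ± 0.07 (log2), Dagla, which makes an endocannabinoid, by 0.99 ± 0.07 and Prkce by 0.79 ± 0.06 at P15 (edgeR adjusted p of at most 2.51e-11 each). Downstream of Gs and Gi, 10 of 21 genes of protein kinase A and phosphodiesterases rose and 7 fell at P15, and 9 rose and 7 fell at P28. The phosphodiesterases Pde7b, Pde1b and Pde8b rose by 2.36 ± 0.11, 1.51 ± 0.08 and 1.34 ± 0.07. Pde7b was at 7.55 ± 0.887 CPM at P5 (SD, n = 5), 35.9 ± 0.600 CPM at P15 and 53.0 ± 0.361 CPM at P28 (SD, n = 3 each).

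Of 8 chaperones and Ly6-type modulators of nicotinic receptors tested, 4 rose and 4 fell at P15 and again at P28. Lynx1, which restrains nicotinic receptors at the membrane, was at 151 ± 22.1 CPM (SD, n = 5) at P5, 449 ± 10.1 CPM at P15 and 341 ± 22.2 CPM at P28 (SD, n = 3 each), a change of 1.73 ± 0.07 (log2) at P15 (edgeR adjusted p = 1.23e-15). The related Lypd1 changed by 1.59 ± 0.12 and Ric3, a chaperone needed for Chrna7 channels, by 0.61 ± 0.06. Rapsn, which clusters the receptor of muscle, averaged 0.0824 CPM.

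Of 16 genes of transmitter synthesis, loading and uptake, 8 were tested, of which 2 rose and 5 fell at P15 and 1 rose and 5 fell at P28. Slc18a2, the vesicular monoamine transporter, was at 9.01 ± 1.53 CPM (SD, n = 5) at P5 and 1.62 ± 0.964 CPM (SD, n = 3) at P15 (-2.63 ± 0.30, edgeR adjusted p = 9.43e-08), and Slc6a3, the dopamine transporter, at 6.93 ± 1.44 and 1.48 ± 0.253 CPM (-2.36 ± 0.28). Dbh, which makes noradrenaline, rose from 1.88 ± 0.220 to 5.24 ± 0.419 CPM (1.57 ± 0.20). Chat, which makes acetylcholine, averaged 0.00782 CPM, the vesicular acetylcholine transporter Slc18a3 0.0807 CPM, and the serotonin and noradrenaline transporters Slc6a4 and Slc6a2 0.0797 and 0.0502 CPM, none of which was tested. Of the genes of transmitter breakdown, Maoa (-1.15 ± 0.15) and Ache (-0.62 ± 0.12) fell at P15, and Maob (-0.27 ± 0.19) and Bche (-0.23 ± 0.47) were not called. Ache, which splits acetylcholine, was at 56.7 ± 3.51 CPM at P5, 36.8 ± 4.08 CPM at P15 and 21.2 ± 0.613 CPM at P28. Counts of all these lists stand beside the shares of all genes given above, 31.6% higher and 31.8% lower at P15 and 35.3% and 36.4% at P28.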

How the data were processed

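The authors deposited raw counts per gene symbol with no normalization, and all 20 libraries were used. The submitters' processing notes name STAR 2.7.5b, featureCounts, SAMtools 1.10 and build mm10, and the labels' protocols a stranded poly-A kit. Annotation, strand setting and handling of multimapped reads were not given in the sources used here, so the 9 of 49 members whose exons overlap other genes are uncertain. Gene coordinates and exon lengths came from GENCODE vM21 (49 of 49 matched by symbol).

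The test was the robust quasi-likelihood test of edgeR 4.0.16 (R 4.3.3) with trimmed-mean scaling, the default filter (15373 genes kept), adjustment by Benjamini-Hochberg over all of them and a threshold of 0.05. The model held 1 mean for each age and a term for batch B, leaving 13 residual degrees of freedom, and the biological coefficient of variation was 8.46%. With that term, changes from P5 rest on P5 libraries of batch A, except the change to P7, which rests on those of batch B, whereas P5 levels are over all 5. SE was taken as the fitted change divided by the root of F. Within each age every pair of libraries differed by more than counting noise (chi-square over its degrees of freedom, 3.7 to 40.7). Each library was counted as 1 sample. The check cannot show that libraries come from separate animals, since separate preparations of the same animal could also differ. Tested on simulated counts, the P15 to P5 comparison (15079 genes) recovered 77% of 2-fold and 62% of 1.5-fold changes, and P28 to P21 (15074 genes) 78% and 55%. Of the calls, 6.71% and 4.32% were false. The simulation changed few genes and held no batch difference, so recovery in the data may differ. Family shares, sums and the order of levels used CPM per kilobase of merged GENCODE exons. They would differ if the authors counted over other exons. Detection floors cover counting error only.

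Members and lists were chosen with earlier results of these data known. All members with a mean of 1 CPM or more were named, lower ones by family, and from each pathway list the 3 genes with the smallest p at P15, or all of lists of up to 5. Values of some of these genes are not reported here. Genes outside that rule (those set beside pyramidal markers, untested transmitter genes) were chosen after their values were seen. Alternatives were DESeq2 1.42.0 as test or for scaling, total-count scaling, a stricter or no filter, a model lacking the batch term, a block for replicate number, and fits without batch B of P5 or without single libraries.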

Additional observations from a re-analysis of the deposited data

How the results depend on the processing

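Each result was recomputed with DESeq2 size factors, the DESeq2 test, total-count scaling, no filter, a stricter filter, no batch term, a replicate block, without the P5 libraries of batch B and without each library in turn. No direction of a called change was reversed. The count of members called from P5 to P7 was 1 in the reported fit, 4 with total-count scaling, 2 with the DESeq2 test and 7 with no batch term. That between batches at P5 was 1 and became 0 with total-count scaling. The cause was not tested. All other counts stayed within 1.5 times under these settings.

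Leaving out a library gave 27 to 30 members with any difference between ages, 0 to 2 from P5 to P7, 5 to 9 from P7 to P10, 0 to 6 from P10 to P15, 9 to 13 from P15 to P21, 0 to 0 from P21 to P28, 19 to 22 from P5 to P15, 25 to 29 from P5 to P28, 0 to 1 between batches and 29 to 30 past 1 CPM. Each count of a pathway list stayed within 1.5 times.

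With the replicate number as a block, 27 members differed between ages, 20 were called from P5 to P15 and 27 from P5 to P28. The numbers did not pair the libraries: deviations of libraries of the same number at different ages correlated by -0.321 to 0.294 (median -0.0168 over 55 pairs, beside 0.0277 over 110 pairs of different numbers). Depth limits members near 3 counts, such as Chrna3 and Htr1d, whose fitted changes are imprecise.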
